A study of Mus musculus with 6 samples.

Results

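The cytosolic heat shock system of the newborn mouse kidney was described here through 10 genes, namely the heat shock factor gene Hsf1 and the chaperone and co-chaperone genes Hspa1a, Hspa1b, Hspa8, Hsp90aa1, Hsp90ab1, Hsph1, Dnajb1, Hspb1 and Bag3, out of 21219 genes tested. They were chosen by name, and a probe was assigned to a gene by the RefSeq accession it targets. Of the 10 genes, 9 had a probe, with 12 probes in all out of 39429 on the array. Hspa1b had no probe matched by accession, and all 12 probes of the other 9 genes were well above background on all 6 arrays.

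The comparison was between kidneys of neonates labelled USP10 KO, in which the deubiquitinating enzyme gene Usp10 is knocked out, and kidneys of neonates labelled USP10 WT, with 3 neonates of each genotype. All were taken freshly about 6 hours after birth and all are labelled male. The strain, the part of Usp10 that was removed and any treatment shared by the groups are not given in the sources used here. RNA of each neonate, carrying Cy3 dye, went onto its own Agilent array read in a single colour, so the number of arrays limits the precision of every value.

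Hsf1 protein is held inactive in unstressed cells by chaperones. When unfolded proteins draw those chaperones away, it forms trimers, enters the nucleus and binds heat shock elements, which are alternating inverted GAA and TTC units upstream of chaperone genes. HSP70 and HSP90 proteins then fold clients in cycles of ATP hydrolysis, with J-domain proteins, nucleotide exchange factors and small heat shock proteins as partners. In kidney the system is best known for its response to ischaemia, osmotic stress and heat.

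Signal is given throughout as log2 of the processed intensity minus the array's 75th percentile, called the relative log2 signal, and a difference is the KO mean minus the WT mean on that scale. The 6 arrays came from 2 scans, with KO replicates 1 and 2 and WT replicates 2 and 3 in scan 1 and KO replicate 3 and WT replicate 1 in scan 2. Between 64.4% and 73.9% of spots were well above background. Signal of the single Usp10 probe went against the labels, at 3.52 ± 0.14 on KO arrays and 3.03 ± 0.09 on WT arrays (SD, n = 3 each), without overlap. Whether the probe lies outside the deleted part was not tested, nor was whether the labels are right. Every direction here rests on the labels. Of the genes on the Y chromosome, Uty, Ddx3y and Eif2s3y were above background on every array but WT replicate 2, and the brighter Xist probe was above background on WT replicates 1 and 2 alone, so the samples labelled WT do not all match the label male. WT replicate 1 carried both signals, with the brighter Xist probe at -0.62. Its Uty, Ddx3y and Eif2s3y signal lay below that of every KO array, with Eif2s3y at 1.14 beside 1.98 to 2.65. Whether RNA on that array came from 1 neonate was not tested. The Hsph1 difference is therefore also given without each WT array and against WT replicate 3 alone. Against that array alone, the difference was -0.23 for Hsf1, -0.65 for Hspa1a, 0.22 for Hspa8 and -0.35 for Bag3. It was 0.54 for Dnajb1, 0.70 for Hspb1, 0.089 for Hsp90aa1 and -0.075 for Hsp90ab1. All 12 kidney marker genes, among them Umod, Nphs1 and Slc34a1, were above background on all arrays. Of markers of neighbouring tissues, 3 of 7 for adrenal cortex, 4 of 7 for hepatocytes, 3 of 7 for skeletal muscle and 0 of 4 for brown fat were so, while Cyp11a1 and Cyp11b2 of adrenal cortex, Apoa1 of hepatocytes, Ckm, Mylpf and Myog of muscle, and Ucp1, Adipoq and Plin1 of brown fat were not above background on any array.

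None of the 9 measured genes passed the test between genotypes. Hsph1, which encodes the HSP110 chaperone, stood apart with both of its probes lower on every KO array than on every WT array, with 1.91-fold less signal on the fitted probe. The remaining 8 differed by less than 0.4 on the log2 scale, 4 upward and 4 downward, and their levels of KO and WT arrays overlapped except for Bag3. Levels thus did not overlap for 2 of 9, both lower in KO, against 18.2% of all genes in either direction and 8.1% lower. By limma, 0 of 9 had an adjusted p under 0.05, against 0.0801% of all genes tested, and 1 of 9, Hsph1, had an unadjusted p under 0.05, against 10.4% of all genes in either direction and 4.23% lower. With scan as a block, Hsf1 and Hsph1 had an unadjusted p under 0.05, 2 of 9, against 17.7% of all genes. The share of all genes with an unadjusted p under 0.05 was 5.05% without WT replicate 3, where 1 of the 9 genes, Hsph1, had one. It was 6.16% without KO replicate 2, where 2 of 9, Hsph1 and Hspa1a, had one. Without KO replicate 3 it was 8.37%, where 2 of 9, Hsph1 and Hsf1, had one. The lowest adjusted p was 0.343 and the next 0.580. The median difference of the 9 was -0.019, beside 0.028 for all genes. In whole kidney, fewer cells of a type and less RNA per cell cannot be told apart.

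**Figure D1:**
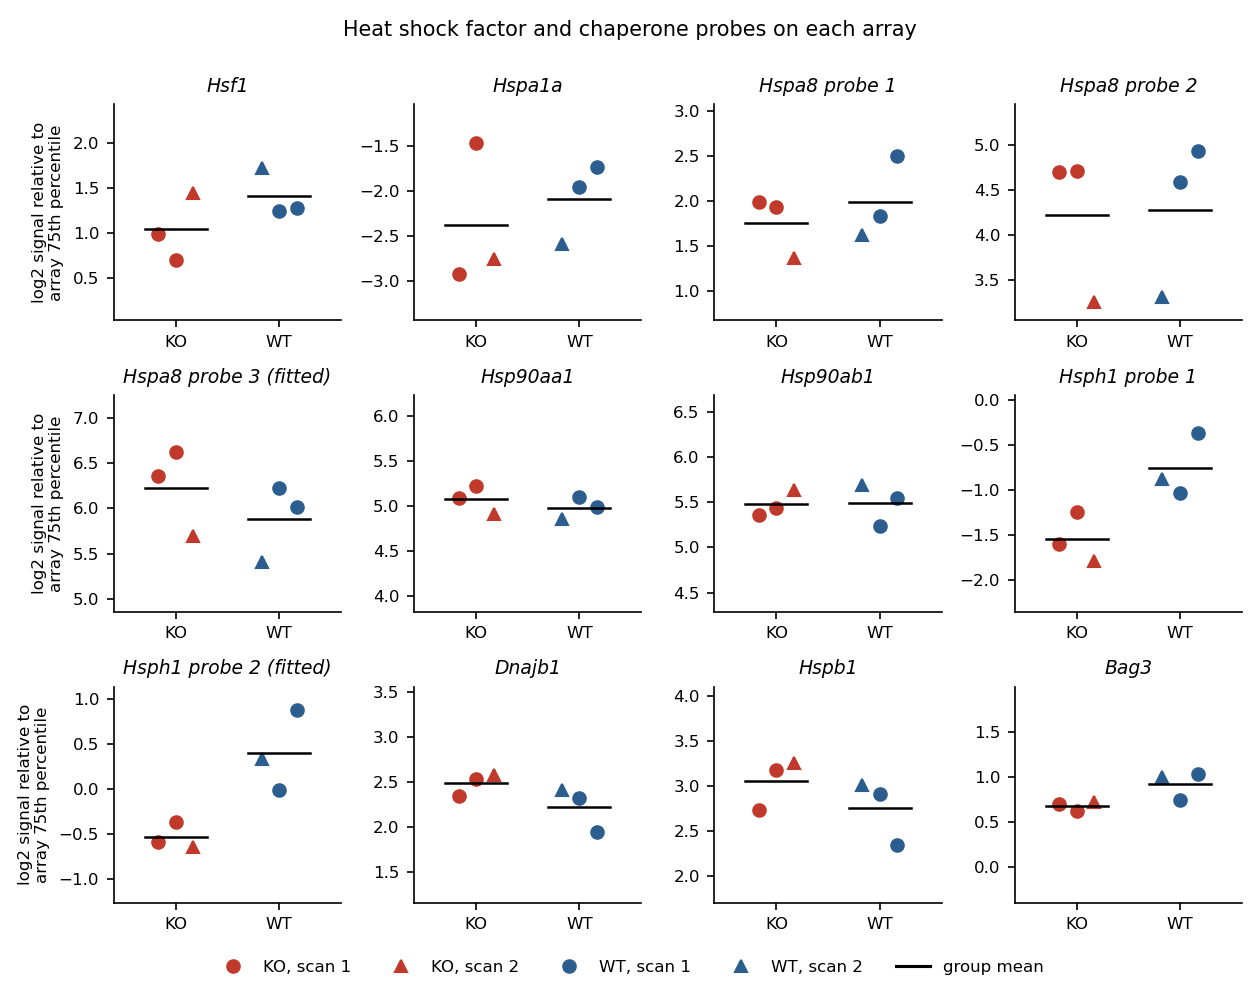
Relative log2 signal of each of the 12 probes (vertical axes, each spanning the same range) on the 3 KO and 3 WT arrays, with circles for scan 1, triangles for scan 2 and lines for group means. Both Hsph1 probes are lower on all KO arrays, and all Hspa8 probes are lowest on the scan 2 array of each genotype.

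Hsf1 encodes the transcription factor at the head of this system. Its relative log2 signal was 0.99, 0.71 and 1.45 on KO replicates 1, 2 and 3, and 1.72, 1.25 and 1.28 on WT replicates 1, 2 and 3. The groups overlapped, because KO replicate 3 lay above 2 of the WT arrays. The difference was -0.37 ± 0.24 (SE), with a 95% interval from -0.94 to 0.20 (limma, adjusted p = 0.580). Hsf1 was highest on the scan 2 array of each genotype, and the difference was -0.42 within scan 1 and -0.28 within scan 2. With scan as a block its adjusted p was 0.266. The difference was -0.20 without KO replicate 2, -0.22 without WT replicate 1 and -0.57 without KO replicate 3.

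Hspa1a encodes the inducible HSP70, which is the textbook readout of Hsf1 activity. Its near-identical neighbour Hspa1b encodes the same kind of protein and had no probe. The RefSeq promoter windows of the pair, from 250 bases before to 50 after the start, are identical at 296 of 300 bases. The bases before each start are shown to let the pair be compared, on the minus strand of GRCm38.p6, at chr17:34972157-34972406 for Hspa1a and chr17:34959239-34959488 for Hspa1b, with a match to the heat shock pair GAANNTTC in capitals:
Hspa1a: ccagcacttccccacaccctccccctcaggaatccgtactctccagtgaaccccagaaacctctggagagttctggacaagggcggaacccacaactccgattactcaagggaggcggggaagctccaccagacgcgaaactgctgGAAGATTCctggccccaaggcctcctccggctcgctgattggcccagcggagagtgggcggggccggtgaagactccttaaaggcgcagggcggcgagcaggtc
Hspa1b: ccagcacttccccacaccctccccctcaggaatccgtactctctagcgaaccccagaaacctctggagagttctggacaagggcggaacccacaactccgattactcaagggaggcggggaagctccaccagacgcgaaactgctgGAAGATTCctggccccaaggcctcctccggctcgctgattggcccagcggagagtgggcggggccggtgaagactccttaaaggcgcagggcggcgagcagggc
The match lies 104 bases before the start in both genes. Whether the Hspa1a probe also reads Hspa1b transcript was not tested.

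Relative log2 signal of Hspa1a was -2.92, -1.47 and -2.75 on KO replicates 1, 2 and 3, and -2.58, -1.95 and -1.73 on WT replicates 1, 2 and 3. KO replicate 2 was the highest of all 6 arrays and KO replicate 1 the lowest, so the spread within KO, an SD of 0.79, was larger than the difference of -0.29 ± 0.41 (SE). The interval ran from -1.25 to 0.68 (limma, adjusted p = 0.796). Without KO replicate 2 the difference was -0.74 (limma, unadjusted p = 0.036, adjusted p = 0.777), and without KO replicate 1 it was -0.019.

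Hspa8 encodes the constitutive HSP70, HSC70, which carries out folding and clathrin uncoating in unstressed cells. It was read by 3 probes to the same transcript accession. The brightest, used in the fit, gave 6.36, 6.63 and 5.70 on KO replicates 1, 2 and 3, and 5.41, 6.22 and 6.01 on WT replicates 1, 2 and 3. Its difference was 0.35 ± 0.31 (SE, interval -0.37 to 1.07; limma, adjusted p = 0.678). The other 2 probes had differences of the opposite sign, -0.23 and -0.053, and the mean of the 3 probes gave 0.023, so no direction holds over the probes. Leaving out 1 array moved the fitted difference between 0.11, without WT replicate 1, and 0.61, without KO replicate 3. All 3 probes were lower on the scan 2 arrays, by 1.45 on the log2 scale at most. On that probe KO replicate 3 and WT replicate 1 stood at 3.26 and 3.31, while the scan 1 arrays lay between 4.59 and 4.93.

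Hsph1 encodes HSP110, a large relative of HSP70 that acts as its nucleotide exchange factor and helps to take apart aggregates. The fitted probe stood at -0.59, -0.37 and -0.64 on KO replicates 1, 2 and 3, and at 0.34, -0.0082 and 0.87 on WT replicates 1, 2 and 3. Every KO array lay below every WT array, with a gap of 0.36 between the nearest. The difference was -0.93 ± 0.25 (SE), or 1.91-fold lower on KO arrays, with an interval from -1.51 to -0.36. It did not pass the test over all genes (limma, adjusted p = 0.343, and 0.196 with scan as a block).

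The other Hsph1 probe, to the same accession, stood at -1.60, -1.24 and -1.79 on KO replicates 1, 2 and 3, and at -0.87, -1.03 and -0.37 on WT replicates 1, 2 and 3. It had the same order of groups, with a difference of -0.78 ± 0.24 (SE; limma over every probe, adjusted p = 0.407). Within scan 1 the fitted probe differed by -0.91 and within scan 2 by -0.98. WT replicate 3 had the highest Hsph1 signal on both probes, and the fitted difference was -0.70 without it and -1.40 against it alone. Without WT replicate 2 it was -1.14 and without WT replicate 1 it was -0.96. Levels that did not overlap and were lower in KO were found for 2 of the 9 genes, Hsph1 and Bag3, against 8.1% of all genes, and 0 of 9 were higher without overlap, against 10.1%. In either direction 18.2% of all genes did not overlap.

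Signal of marker lists of other cell types is given beside the Hsph1 difference. Of 10 macrophage and other leukocyte markers 9 had a negative difference and 1 passed the limma test, and their summed linear signal, in multiples of the array's 75th percentile, was 5.62 to 6.08 on KO arrays and 6.55 to 7.39 on WT arrays. All 8 smooth muscle and mural markers had a negative difference, with sums of 14.2 to 27.9 on KO arrays and 25.1 to 34.6 on WT arrays, which overlap. No marker of either list was below background on all arrays. Among all genes tested, 9918 of 21219 had a negative difference and 0.0801% passed. Of the kidney markers, 7 of 12 had a negative difference, with a median of -0.17, beside -0.20 for smooth muscle and mural markers. Of measured skeletal muscle markers 3 of 3 were negative, and of measured hepatocyte markers 2 of 4. Of 4 measured adrenal cortex markers 2 had a positive and 2 a negative difference. Sums over all 7 markers of that list were 0.565 to 0.700 on KO arrays and 0.422 to 0.478 on WT arrays, without overlap. These sums include Cyp11a1 and Cyp11b2, above background on no array. Of 6 measured erythroid markers 5 had a positive difference. Sums over all 7 erythroid markers overlapped, at 70.5 to 127 on KO arrays and 70.6 to 114 on WT arrays. The part of these cell types in the Hsph1 difference was not tested.

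The Hsph1 promoter is shown because it held more heat shock letters than any other window of these genes. The bases before the first listed start, on the minus strand of GRCm38.p6 at chr5:149636337-149636586, hold 1 match to the pair TTCNNGAA, in capitals, 33 bases before the start:
Hsph1: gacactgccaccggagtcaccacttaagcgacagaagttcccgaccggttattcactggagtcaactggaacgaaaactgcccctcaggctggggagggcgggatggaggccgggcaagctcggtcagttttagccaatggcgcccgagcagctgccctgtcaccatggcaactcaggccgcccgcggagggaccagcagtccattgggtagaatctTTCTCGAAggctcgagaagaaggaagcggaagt
A match to the triple TTCNNGAANNTTC, ttctggaaagttc, lies 37 bases after that start. Both strands were searched for the pairs GAANNTTC and TTCNNGAA, each its own reverse complement, and for the triples GAANNTTCNNGAA and TTCNNGAANNTTC, which contain the pairs and are reverse complements of each other. A pair occurs in 15.1% and a triple in 0.603% of all 32851 RefSeq promoter windows of this length. Of the 6 genes with a window, a pair was present in 5, namely Hsph1, Hspa1a, Hspa1b, Hspb1 and Bag3, and a triple in Hsph1 alone. Hsf1, Hspa8, Hsp90aa1 and Hsp90ab1 had no window in the table. Neither Dnajb1 window held these letters.

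Bag3 encodes a co-chaperone that releases nucleotide from HSP70 and steers its clients to autophagy. Its relative log2 signal was 0.70, 0.61 and 0.71 on KO replicates 1, 2 and 3, and 0.99, 0.74 and 1.03 on WT replicates 1, 2 and 3. The KO arrays lay close together and just below all WT arrays, with a gap of 0.031 to WT replicate 2. The difference of -0.24 ± 0.16 (SE, interval -0.62 to 0.13) did not pass (limma, adjusted p = 0.580). It was -0.23 within scan 1 and -0.28 within scan 2.

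Dnajb1 encodes the J-domain protein HSP40, which delivers clients to HSP70 and stimulates its ATPase. Relative log2 signal was 2.34, 2.53 and 2.58 on KO replicates 1, 2 and 3, and 2.40, 2.32 and 1.94 on WT replicates 1, 2 and 3. The groups overlapped at KO replicate 1 and WT replicate 1, and WT replicate 3 was the lowest. The difference was 0.26 ± 0.19 (SE), with an interval from -0.18 to 0.70 (limma, adjusted p = 0.606). It was 0.54 against WT replicate 3 alone and 0.12 without that array.

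Hspb1 encodes the small heat shock protein HSP25, a holdase that keeps unfolding proteins soluble and protects actin. Its relative log2 signal was 2.72, 3.17 and 3.25 on KO replicates 1, 2 and 3, and 3.01, 2.90 and 2.34 on WT replicates 1, 2 and 3. The groups overlapped, with WT replicate 3 again lowest. The difference was 0.30 ± 0.24 (SE, interval -0.27 to 0.86; limma, adjusted p = 0.652). Without WT replicate 3 it was 0.092. The Hspb1 promoter is shown beside that of Hsph1, since its pairs of units all lie before the start. A link between promoter letters and the differences was not tested. On the plus strand of GRCm38.p6 at chr5:135887669-135887918, it holds 2 matches to GAANNTTC, in capitals, 117 and 97 bases before the start:
Hspb1: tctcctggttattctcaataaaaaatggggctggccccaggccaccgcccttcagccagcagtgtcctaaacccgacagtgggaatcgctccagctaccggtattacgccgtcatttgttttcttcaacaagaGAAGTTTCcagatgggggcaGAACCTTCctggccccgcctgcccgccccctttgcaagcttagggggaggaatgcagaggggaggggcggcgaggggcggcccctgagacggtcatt

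Hsp90aa1 and Hsp90ab1 encode the inducible and the constitutive cytosolic HSP90, which mature kinases and steroid receptors. Hsp90aa1 stood at 5.09, 5.23 and 4.92 on KO replicates 1, 2 and 3, and at 4.86, 5.10 and 4.99 on WT replicates 1, 2 and 3. Its range over all arrays, 0.36, was the narrowest of the 9 genes. The difference was 0.095 ± 0.17 (SE, interval -0.30 to 0.49; limma, adjusted p = 0.841), and its sign turned to -0.037 with quantile normalisation. Without KO replicate 2 it was 0.021, without WT replicate 1 it was 0.034, without WT replicate 2 it was 0.15 and without KO replicate 3 it was 0.18. Hsp90ab1 stood at 5.36, 5.44 and 5.64 on KO replicates 1, 2 and 3, and at 5.70, 5.24 and 5.55 on WT replicates 1, 2 and 3. The groups overlapped throughout, with a difference of -0.019 ± 0.19 (SE, interval -0.46 to 0.42; limma, adjusted p = 0.976). An interval of this width does not show that the levels were alike.

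**Figure D2:**
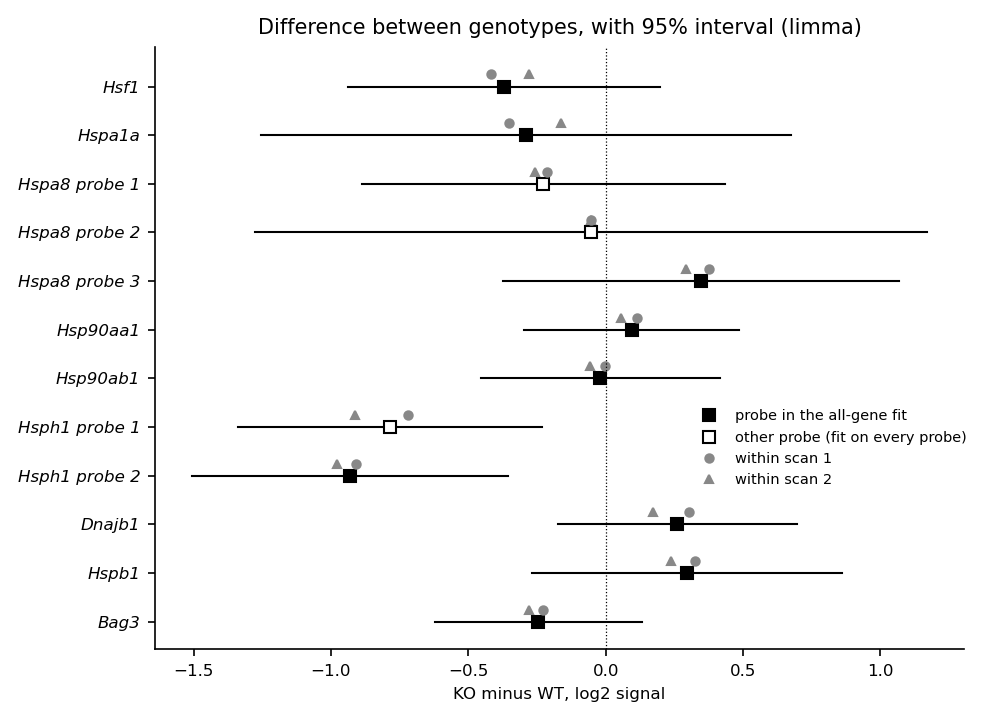
KO minus WT difference in log2 signal (horizontal axis) with its 95% limma interval for each probe, filled squares being the probes of the all-gene fit, open squares the other probes and grey marks the differences within scan 1 and scan 2. The intervals of both Hsph1 probes lie below 0, and those of the other probes span 0.

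Differences between the scans were set beside those between genotypes. For 6 of the 9 genes the absolute difference between scan 2 and scan 1 was larger than that between KO and WT, as it was for 55.4% of all genes. Median absolute differences of the 9 were 0.27 between scans and 0.29 between genotypes, beside 0.26 and 0.22 for all genes. Scan 2 was lower than scan 1 by 0.75 on the log2 scale for Hspa8 and by 0.65 for Hspa1a, and higher by 0.53 for Hsf1. Hsph1 differed by only -0.13 between scans. Both scans held both genotypes, and scan 2 held 1 array of each, so the scan and the individual neonates cannot be told apart there.

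**Figure D3:**
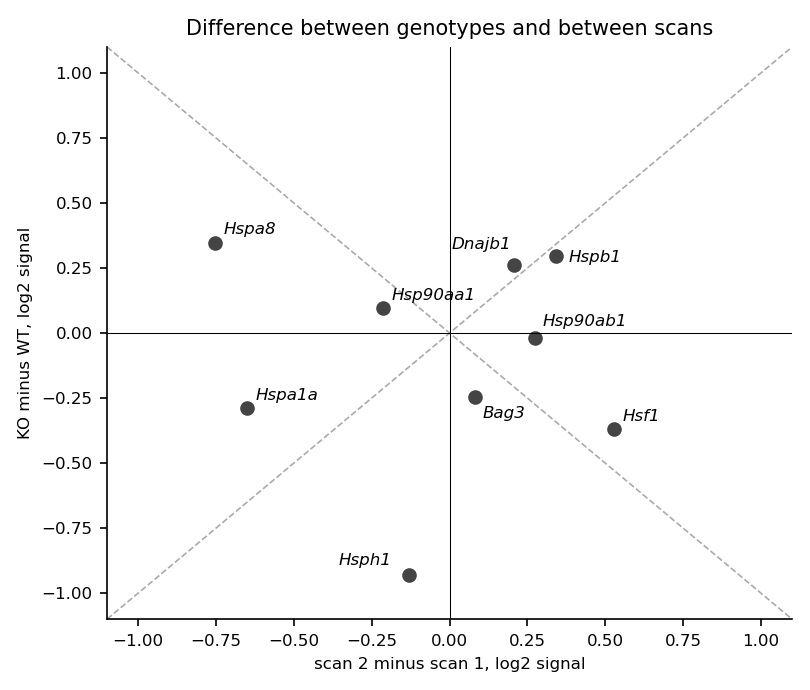
Difference between KO and WT (vertical axis) against the difference between scan 2 and scan 1 (horizontal axis), both in log2 signal, for the 9 measured genes. Dashed lines mark equal size. Hsph1 lies at -0.93 on the genotype axis and near 0 on the scan axis, while Hspa8, Hspa1a and Hsf1 lie farther out on the scan axis.

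The wider chaperone network was followed through 10 further lists. Counted once each, 114 of their genes were measured, 56 with a positive and 58 with a negative difference. None passed in limma, nor with scan as a block, where 0.292% of all genes passed. By unadjusted p in limma, 7 of the 114 were higher in KO and 2 lower with a p under 0.05, against 6.15% and 4.23% of all genes. Levels of KO and WT did not overlap for 13 of the 114 that were higher in KO and 10 that were lower. Among all genes these shares were 10.1% and 8.1%. The medians of the lists ran from -0.18 to 0.18.

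Among the HSP90 co-chaperones, 7 of 20 measured genes had a positive and 13 a negative difference, with a median of -0.11. Fkbp5, an immunophilin that binds HSP90 in steroid receptor complexes and is induced by glucocorticoids, stood at 3.56, 4.37 and 3.93 on KO replicates 1, 2 and 3, and at 2.61, 2.58 and 2.39 on WT replicates 1, 2 and 3. All KO arrays lay above all WT arrays, by 1.43 ± 0.23 (SE) in the mean, and the gene came closest to the threshold among those of the 10 lists (limma, adjusted p = 0.0997, and 0.0798 with scan as a block). Cdc37l1, a relative of the kinase co-chaperone CDC37, also did not overlap, with a difference of 0.82 ± 0.20 (adjusted p = 0.322). The other immunophilin Fkbp4 had a difference of -0.64 ± 0.29, and St13, the HSP70-interacting protein HIP, one of -0.64 ± 0.27. These 2 overlapped between genotypes.

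Other heat shock factors were measured for 6 of 7 genes of their list, 5 with a positive difference and a median of 0.18. Hsf5, a factor known from the testis, was dim but above background on all arrays, and differed by 0.72 ± 0.21 (limma, adjusted p = 0.375) with no overlap. Hsf2, which forms trimers with Hsf1, differed by 0.29 ± 0.24, Hsf4 by 0.30 ± 0.21 and Hsbp1, a binding protein that restrains Hsf1 trimers, by -0.23 ± 0.25.

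Of the other cytosolic HSP70 and HSP110 genes, 6 of 7 were measured, 2 positive and 4 negative, with a median of -0.18. Hspa12b, an HSP70 relative of endothelial cells, stood at -0.62, -1.05 and -1.02 on KO replicates 1, 2 and 3, and at -0.29, -0.19 and -0.0044 on WT replicates 1, 2 and 3. The groups did not overlap, and the difference was -0.73 ± 0.19 (limma, adjusted p = 0.331). Of 6 endothelial markers 4 had a negative difference, with summed signal of 16.0 to 21.0 on KO arrays and 18.4 to 22.2 on WT arrays, and their part in it was not tested. Hspa4, an HSP110 relative of Hsph1, had a difference of opposite sign to it, 0.30 ± 0.16, with all KO arrays above all WT arrays (adjusted p = 0.531). Hspa2 and Hspa12a differed by -0.23 ± 0.31 and -0.30 ± 0.46.

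J-domain co-chaperones were measured for 16 of 18 genes, 9 positive and 7 negative, with a median of 0.064. Dnaja1, a heat-inducible partner of HSP70, differed by -0.27 ± 0.16 and Dnajc13, a protein of endosomes, by -0.23 ± 0.16, both without overlap. Dnajb12 differed by 0.48 ± 0.21 and Dnajc7 by 0.34 ± 0.25. None had an unadjusted p under 0.05 in limma.

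BAG family and exchange factor genes were all measured, 2 positive and 4 negative, with a median of -0.15. Bag1, whose product binds the HSP70 ATPase domain, differed by 0.45 ± 0.22 and Hspbp1, another exchange factor, by -0.34 ± 0.19, both without overlap and in opposite directions. Bag6 differed by -0.31 ± 0.21 and Bag5 by 0.28 ± 0.24. Among the other small heat shock proteins 7 of 9 were measured, with differences from -0.31 for Hspb9 to 0.21 for Hspb8. Hspb6 did not overlap, at 0.18 ± 0.15, and Hspb2 differed by -0.26 ± 0.21.

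The chaperonin TRiC, which folds actin and tubulin, and its partner prefoldin were measured with all 15 genes, 6 positive and 9 negative, with a median of -0.15. Most TRiC subunit genes had a negative difference and most prefoldin genes a positive one, and 0 of the 15 had an unadjusted p under 0.05 in limma. The TRiC subunit genes Cct4 and Tcp1 differed by -0.45 ± 0.19 and -0.45 ± 0.21 without overlap, and Cct3 by -0.48 ± 0.23 with overlap. The prefoldin gene Pfdn2 lay the other way, at 0.34 ± 0.19 without overlap. Their adjusted p by limma lay between 0.483 and 0.541.

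Other genes that heat induces through Hsf1 were all 15 measured, 8 positive and 7 negative, with a median of 0.019. Gadd45b, Rgs2 and Zfand2a, which act in stress signalling, G protein signalling and proteasome binding, differed by 0.69 ± 0.27, 0.51 ± 0.19 and 0.46 ± 0.19, and the stress transcription factor gene Atf3 by -0.47 ± 0.18. Gadd45b, Rgs2 and Atf3 did not overlap between genotypes, and the 4 adjusted p by limma lay between 0.456 and 0.476.

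Chaperones of other compartments had medians of 0.013 for mitochondria and 0.098 for the endoplasmic reticulum. Of 10 mitochondrial genes 5 were positive and 5 negative. Dnajc19, of the inner membrane import motor, differed by 0.51 ± 0.21 and the chaperonin gene Hspd1 by 0.27 ± 0.16, which did not overlap. Of 15 measured endoplasmic reticulum genes 10 were positive and 5 negative, with Pdia4 at 0.23 ± 0.17 without overlap and Pdia3 at -0.35 ± 0.20, the lowest of the list. No adjusted p in these lists was below 0.477 by limma.

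**Figure D4:**
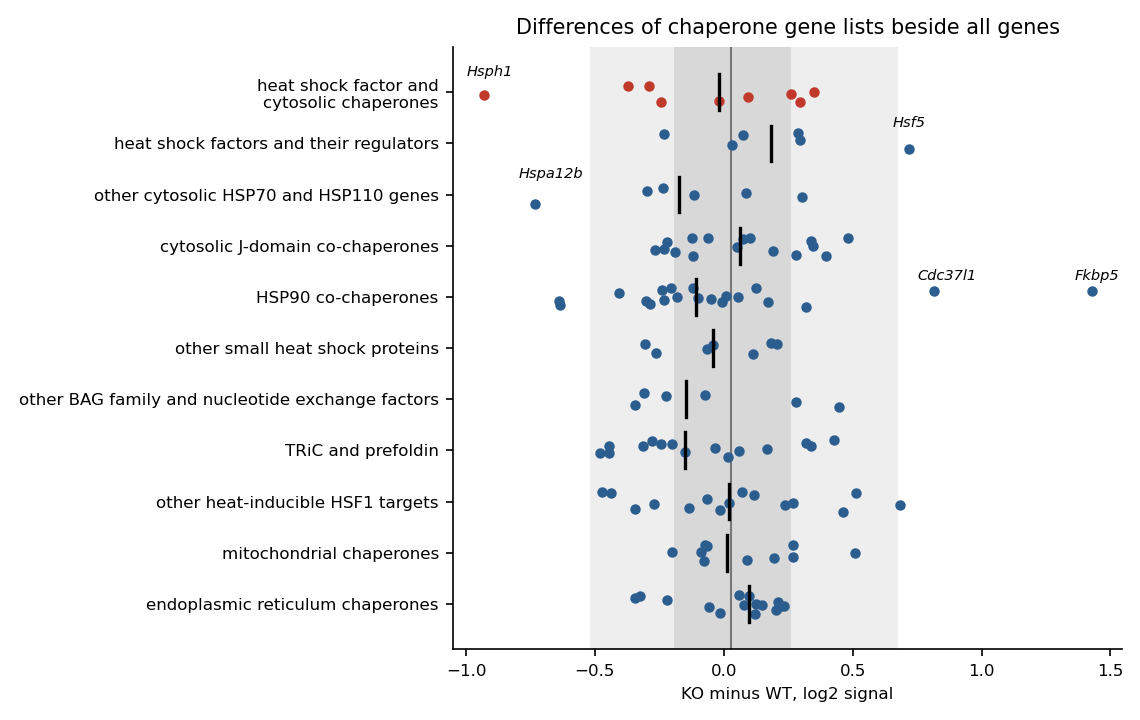
KO minus WT difference in log2 signal (horizontal axis) of the measured genes of each list, with a bar at the list's median. Grey bands mark the span from percentile 25 to 75 and from percentile 5 to 95 of all genes tested, and the grey line their median of 0.028. Hsph1 and Fkbp5 lie farthest outside the wider band, on opposite sides, and most other genes lie within it.

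The genes whose pattern over the 6 arrays was most like that of Hspa1a, out of 14466 named genes compared, were Ina, Lmln, Klf1, Nckap5l and Zfp398, with Pearson r of 0.997, 0.996, 0.994, 0.994 and 0.988. Each put the 6 arrays in the same order as Hspa1a, with KO replicate 2 highest and KO replicate 1 lowest. These values describe the arrays, which share their scaling, and were picked as the highest. Differences of the 5 between KO and WT ran from -0.29 for Klf1 to -0.061 for Zfp398. Klf1 was dim, and above background on only 5 of the 6 arrays.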

How the data were processed

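Kidney RNA of 6 neonates was measured on single-colour Agilent arrays. The deposited values were each spot's processed intensity on a linear scale, corrected for background but not scaled across arrays, per the file headers, which name Agilent Feature Extraction 11.0.1.1, while the submitters' processing notes name 9.1. Control spots and spots flagged as outliers were left out, log2 was taken, each array's 75th percentile was subtracted, and the mean was taken over repeated spots. By accession, 69.1% of 39429 probes found a gene name in RefSeq's table for GRCm38.p6, which gave names only, because the headers give another build for the array design. Probes had to be well above background throughout KO or throughout WT, and a gene was represented by its probe of highest mean signal. KO was compared with WT over 21219 genes in R 4.3.3 with limma 3.58.1 (functions lmFit and eBayes), with two-sided p-values adjusted by Benjamini and Hochberg's method across the whole table and a threshold of 0.05. For 3 against 3, an exact permutation test on 1 gene cannot give a p below 0.1. The fit was tested on simulated data.

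Arrays with the same scan time in their headers were taken as 1 scan. Arrays were not paired by replicate number. Deviations from the group means of same-numbered arrays correlated at -0.40, 0.48 and -0.60 across genes, for replicates 1, 2 and 3. These values cannot decide whether the numbers mark pairs, because same-numbered replicates 1 and 3 lie in different scans. KO replicate 3 and WT replicate 1, both of scan 2, correlated at 0.89. The members and lists were chosen with earlier results of these data known. Named were all members, up to 4 genes with the smallest p of each other list, the 5 genes most like Hspa1a (Hspa1b, planned beside it, had no probe), and Usp10. Promoter sequences are from RefSeq, GRCm38.p6. Alternatives were other scalings, normexp background correction with an offset of 50 on the median signals, other filters, other uses of several probes, variance settings, blocks, and leaving out arrays.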

Additional observations from a re-analysis of the deposited data

How the results depend on the processing

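Under each of 20 alternatives with a test, 0 of the 9 measured genes passed, with a lowest adjusted p of 0.196, for Hsph1 with scan as a block. The Hsph1 difference kept its direction in all 21 alternatives, from -1.40 to -0.70, with an unadjusted p under 0.05 by limma in 19 of 19 with at least 2 arrays in each group. The fit against WT replicate 3 alone assumes that this array varies like the KO arrays. Hsf1, Hspa1a, Bag3, Dnajb1 and Hspb1 also kept their direction in all 21, but Hsf1 moved between -0.57 and -0.20 and Hspa1a between -0.74 and -0.019. Hspa8 stayed positive, between 0.023 and 0.61, when the fit over every probe was read at its brightest probe alone. The other 2 Hspa8 probes had differences of -0.23 and -0.053. Hsp90aa1 stayed positive, from 0.021 to 0.18, with any 1 array left out. It turned to -0.037 with quantile normalisation and to -0.041 with normexp and quantile normalisation. Hsp90ab1 turned positive without KO replicates 1 or 2 or WT replicates 1 or 3, its values with 1 array left out running from -0.15 to 0.081. All genes together shifted to a median of 0.14 under normexp scaled to the 75th percentile, where Hsph1 was at -0.81, and to 0.12 without a filter, where Hsph1 was at -0.93, beside 0.028.

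The count of 17 genes was 0 with normexp and quantile normalisation, with no filter and against WT replicate 3 alone, 1 with a filter on all 6 arrays, 8 with the mean of probes, 27 over every probe, 36 with array weights, 45 with an intensity trend and robust variance, and 62 with scan as a block. It was 2203 at an unadjusted p under 0.05. Leaving out 1 array gave between 0 and 30, with 0 in 5 of 6 fits and 30 without KO replicate 3. In the 9 alternatives with 0, between 1072 (without WT replicate 3) and 2649 (without KO replicate 1) genes had an unadjusted p under 0.05 by limma. With the replicate number as a block it was 0 (1610 at an unadjusted p under 0.05 by limma), and the numbers are known only as labels. Scan 2 alone gave values with no test. The causes were not tested.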
